A study of Homo sapiens with 3 samples.

Results

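ENTPD1, UGDH and their named antisense RNAs, ENTPD1-AS1 and UGDH-AS1, were described in HEK293, a widely used human cell line that was made from embryonic kidney by adenovirus transformation, in 3 RNA sequencing libraries. The members are the 4 gene names of these 2 pairs, out of 26485 gene names in the tables. They were selected on levels measured in these libraries, where ENTPD1 and UGDH-AS1 ranked 5 and 9 by mean CPM (counts per 1000000 of the effective library size), so levels and the order within a pair are given as a description with no test. All libraries belonged to 1 group of unmodified cells kept in DMEM with 10% fetal calf serum, labelled replicates 1, 2 and 3, with no treatment or time point. The RNA was total RNA depleted of ribosomal RNA, made into libraries with a directional kit from 2.5 µg of input, although the titles call the libraries mRNA sequencing. Nothing in the labels ties the replicates to separate cultures, so the spread and the p-values describe these samples and may be technical.

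ENTPD1 encodes CD39, a membrane enzyme that removes phosphates from ATP and ADP outside the cell and leaves AMP, which NT5E (CD73) converts to adenosine. UGDH encodes UDP-glucose dehydrogenase, the cytosolic enzyme that makes UDP-glucuronate, the sugar donor for hyaluronan and other glycosaminoglycans and for the glucuronidation of drugs and steroids. An antisense RNA is transcribed from the strand opposite a gene. It may overlap the exons or introns of that gene or diverge from its promoter.

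The start regions of the members are shown because they set out how each antisense RNA lies against its enzyme gene. The sequences are from RefSeq on GRCh38.p14 and give the 250 bases before each annotated start, 5′ to 3′ on the strand of the gene. All 4 members had an entry, and ENTPD1 had 5 starts, of which 1 is printed. Capitals in the UGDH and UGDH-AS1 windows mark the 101 bases that both share, from chr4:39527589-39527689. Capitals in the ENTPD1 and ENTPD1-AS1 windows mark CCAAT and GGGCGG on either strand.
UGDH (chr4:39527440-39527689, minus strand): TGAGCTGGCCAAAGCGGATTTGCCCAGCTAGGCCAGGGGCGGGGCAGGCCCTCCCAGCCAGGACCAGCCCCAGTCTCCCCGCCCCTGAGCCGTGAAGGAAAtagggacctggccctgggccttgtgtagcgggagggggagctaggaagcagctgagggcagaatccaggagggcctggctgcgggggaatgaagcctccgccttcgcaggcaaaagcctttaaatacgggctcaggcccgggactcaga
UGDH-AS1 (chr4:39527589-39527838, plus strand): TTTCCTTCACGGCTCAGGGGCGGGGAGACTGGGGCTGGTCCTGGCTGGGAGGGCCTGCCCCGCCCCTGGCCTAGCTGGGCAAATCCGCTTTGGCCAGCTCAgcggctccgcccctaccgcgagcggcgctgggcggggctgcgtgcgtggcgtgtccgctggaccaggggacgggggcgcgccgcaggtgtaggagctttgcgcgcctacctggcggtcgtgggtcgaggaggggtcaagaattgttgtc
ENTPD1 (chr10:95755402-95755651, plus strand): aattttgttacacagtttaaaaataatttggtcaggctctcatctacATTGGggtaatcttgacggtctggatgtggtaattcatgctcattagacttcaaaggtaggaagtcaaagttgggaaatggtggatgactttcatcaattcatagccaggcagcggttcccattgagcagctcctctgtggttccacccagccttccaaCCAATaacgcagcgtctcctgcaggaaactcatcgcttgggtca
ENTPD1-AS1 (chr10:96090236-96090485, minus strand): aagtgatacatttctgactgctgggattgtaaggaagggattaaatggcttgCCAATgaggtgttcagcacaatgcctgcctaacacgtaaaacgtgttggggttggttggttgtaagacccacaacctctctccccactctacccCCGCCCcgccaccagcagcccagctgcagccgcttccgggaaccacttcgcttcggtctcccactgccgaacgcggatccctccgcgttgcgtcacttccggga

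In RefSeq, UGDH and UGDH-AS1 diverged from a common stretch of DNA. In RefSeq the starts of both genes lay 400 bases apart on opposite strands, with 399 bases between the genes. The capital stretch is the same DNA read on either strand, and its length follows from the 250 bases printed for each start. That stretch held 4 CG dinucleotides and 2 matches to GGGCGG, the GC box. The UGDH window held 10 CG dinucleotides and the UGDH-AS1 window 24, against a median of 11 over 34943 promoter windows of the same length. GGGCGG was found 2 times in the UGDH window, 4 times in the UGDH-AS1 window and once in that of ENTPD1-AS1, and 42.5% of all windows held it on either strand. CCAAT was found 2 times in the ENTPD1 window and once in the ENTPD1-AS1 window, against 32.0% of all windows, and TATAAA in none of the 4 printed, against 10.8%. Of the ENTPD1 windows not printed, chr10:95741784-95742033 held 1 TATAAA and chr10:95693935-95694184 held 3 matches to CCAAT. The others not printed held none of these motifs. No matches of different motifs overlapped in these windows. Such matches describe the letters of the window.

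The ENTPD1 pair was arranged differently. ENTPD1-AS1 started far beyond the 3′ end of ENTPD1 and ran back across most of it. In GENCODE 29 (GRCh38) ENTPD1 (ENSG00000138185) spans chr10:95711779-95869695 on the plus strand and ENTPD1-AS1 (ENSG00000226688) spans chr10:95753206-96090238 on the minus strand. The genes shared 116490 bp of body. Their exons shared 454 bp in 3 blocks, which was 6.51% of the 6975 bp of ENTPD1 exon and 3.62% of the 12528 bp of ENTPD1-AS1 exon. Of the shared blocks, 2 lay at ENTPD1 starts (chr10:95755652-95755766 and chr10:95755957-95756255), inside the 3509 bp terminal exon of ENTPD1-AS1. They held 52 and 16 coding bases of ENTPD1. The remaining block, of 40 bp, was coding throughout. Of the 5 ENTPD1 windows before a start, 3 lay wholly inside that terminal exon, among them the one printed above. RefSeq carries ENTPD1 7571 bases further at its 3′ end, where 2 more ENTPD1-AS1 exon blocks with 726 bp lie on the other strand.

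UGDH (ENSG00000109814) spans chr4:39498755-39528311 on the minus strand in GENCODE 29, and UGDH-AS1 (ENSG00000249348) spans chr4:39528019-39594707 on the plus strand. In this annotation a separate UGDH exon block, chr4:39527799-39528311, lay upstream of the RefSeq start. It gave a single shared block, chr4:39528019-39528311, which held no coding base. That shared block was 7.24% of the 4045 bp of UGDH exon and 10.5% of the 2787 bp of UGDH-AS1 exon. The last exon of UGDH-AS1 made up 73.0% of its exon length. With the exons around it, it lay inside the body of SMIM14, a gene for a small integral membrane protein on the minus strand, which held 82.7% of UGDH-AS1 exon bases but shared 0 bp of exon with them. Most exon bases of the abundant partner in each pair therefore had no GENCODE 29 exon opposite them, 93.5% for ENTPD1 and 89.5% for UGDH-AS1. Introns are not counted there: 6760 bp of ENTPD1 exon lay inside the body of ENTPD1-AS1. Where along the exons the counts fell was not tested.

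**Figure D1:**
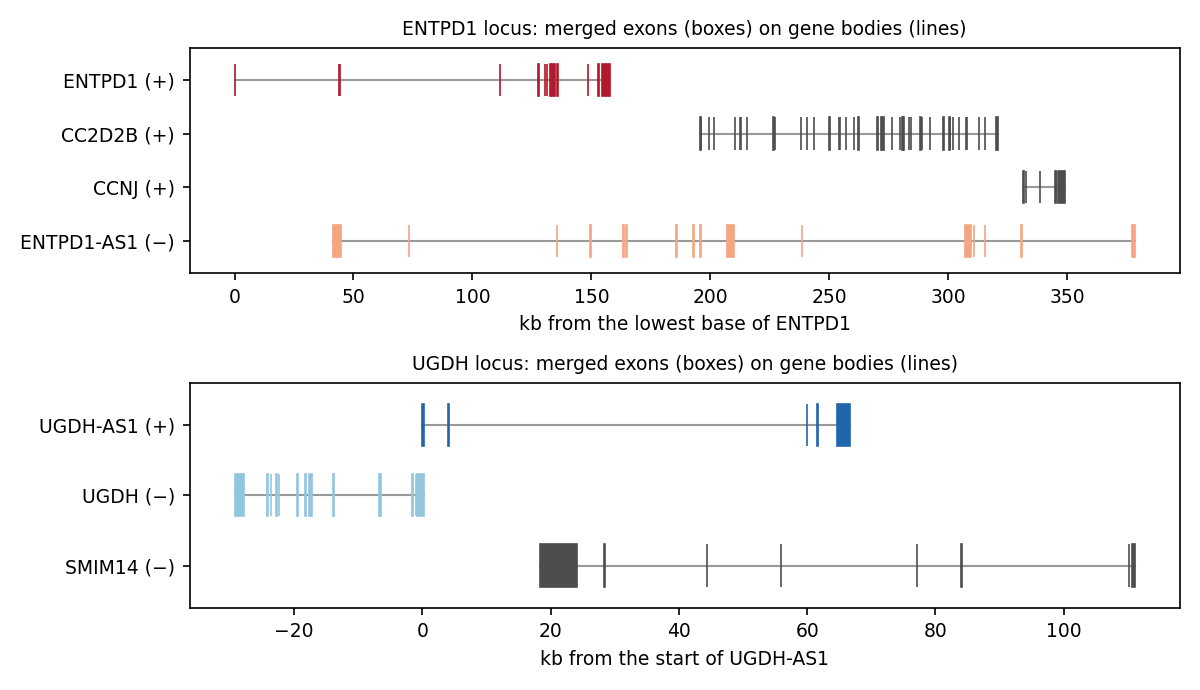
Merged GENCODE 29 exons (boxes) on gene bodies (lines) by distance in kb, with the ENTPD1 locus above and the UGDH locus below, and the strand in brackets. ENTPD1-AS1 runs across ENTPD1, CC2D2B and CCNJ with few exons over theirs, while UGDH and UGDH-AS1 meet at their starts and UGDH-AS1 continues into the introns of SMIM14.

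Gene-assigned totals ranged from 289241 to 483114 counts, or 2.02% ± 0.396 (SD, n = 3) of all records. In replicates 1, 2 and 3, 1 count was worth 2.29, 2.31 and 3.30 CPM and 3 counts 6.86, 6.92 and 9.89 CPM, the level under which a name with no count could still lie. Intervals and floors below cover counting error alone. Reads set aside by the counter as ambiguous between genes numbered 4207, 3564 and 3010 over all names. No source used here states the strand option of the counter, and on average 91.2% of records fell in no feature. Of 351 named antisense pairs with enough counts, described below, the antisense name had more counts in all 3 libraries in 190 and the gene in 130. Which strand the RNA behind a name came from was not tested. The counts below are therefore counts under a name and are not read as levels of that RNA. Wherever a level of a gene is given, above or below, it is the counts or CPM under its name.

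One name of each pair held nearly all of its counts, the enzyme gene in the ENTPD1 pair and the antisense RNA in the UGDH pair. ENTPD1 had 2609, 2937 and 1877 counts in replicates 1, 2 and 3, and its rank among all names was 5, 4 and 4. ENTPD1-AS1 had 12, 5 and 9 counts. ENTPD1 had 217, 587 and 209 counts for each count of ENTPD1-AS1. UGDH-AS1 had 1594, 2865 and 1283 counts and ranked 15, 5 and 13. UGDH had 1, 4 and 3 counts, so replicates 1 and 3 were at or under the level of 3 counts.

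The minor partner took less than 1% of its pair in every library. ENTPD1-AS1 held 0.458% of the ENTPD1 pair in replicate 1 (95% Wilson interval 0.262 to 0.799), 0.170% in replicate 2 (0.0726 to 0.397) and 0.477% in replicate 3 (0.251 to 0.904). UGDH held 0.0627% of the UGDH pair in replicate 1 (0.0111 to 0.354), 0.139% in replicate 2 (0.0542 to 0.358) and 0.233% in replicate 3 (0.0794 to 0.684). Within each pair the intervals of the 3 libraries overlapped. The major partners averaged 99.6% ± 0.172 for ENTPD1 and 99.9% ± 0.0854 for UGDH-AS1 (SD, n = 3 each). Over 3 libraries the lowest two-sided p of an exact permutation of signs is 0.25, so none was run.

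Per kilobase of merged exon, the name UGDH-AS1 had the highest CPM of the 4 members and ENTPD1 the next. UGDH-AS1 had 1307, 2370 and 1517 CPM per kb in replicates 1, 2 and 3, and ENTPD1 had 855, 971 and 887 CPM per kb. UGDH-AS1 exceeded ENTPD1 in 3 of 3 libraries, with means of 1731 ± 563 and 904 ± 59.7 CPM per kb (SD, n = 3 each). ENTPD1-AS1, at 1.83 ± 0.789 CPM per kb, and UGDH, at 1.76 ± 1.04 CPM per kb (SD, n = 3 each), did not differ beyond their spread. With the exons of the longest transcript alone, ENTPD1-AS1 had 5.39 ± 2.33 and UGDH 2.22 ± 1.31 CPM per kb (SD, n = 3 each), so their closeness rests on the exon length used. With merged exons, ENTPD1-AS1 was higher in replicate 1 and UGDH in replicates 2 and 3. Among the 23925 names matched to the annotation, UGDH-AS1 ranked 12 per kilobase and ENTPD1 37. ENTPD1-AS1 ranked 6527 and UGDH 6636.

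**Figure D2:**
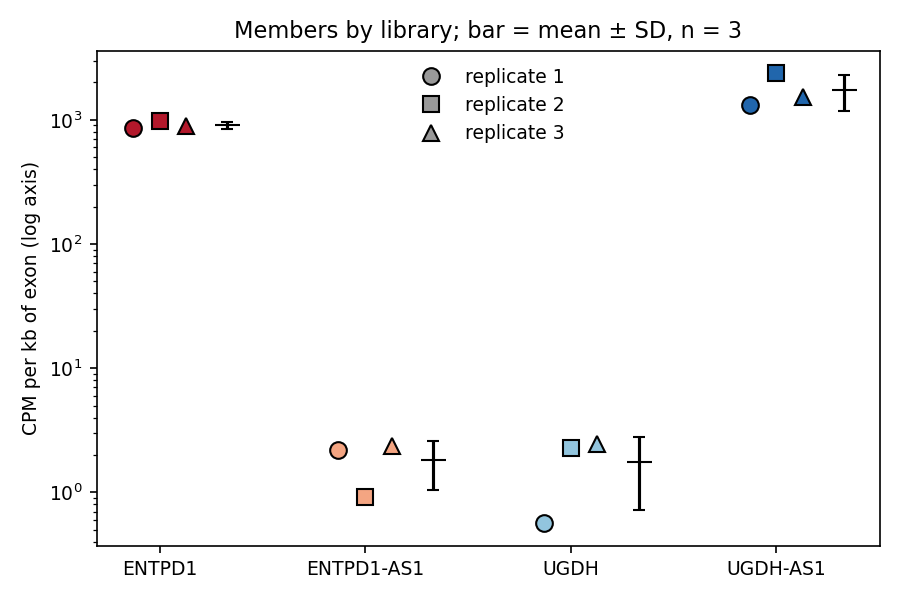
CPM per kilobase of merged exon on a log axis for each member in replicates 1 (circle), 2 (square) and 3 (triangle), with a bar at the mean ± SD. ENTPD1 and UGDH-AS1 sit between 855 and 2370 CPM per kb and their partners between 0.565 and 2.44.

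The spread across replicates was wider for UGDH-AS1 than for ENTPD1, a difference that was not tested itself. ENTPD1 had 5964, 6770 and 6187 CPM in replicates 1, 2 and 3, a mean of 6307 ± 416 CPM (SD, n = 3). UGDH-AS1 had 3644, 6604 and 4229 CPM, a mean of 4825 ± 1568 CPM (SD, n = 3). Replicate 2 stood above both others for UGDH-AS1, by a log2 ratio of 0.75 to their mean. For ENTPD1 that log2 ratio was 0.16, and it was -0.08 with plain total counts, where replicate 3 was highest. Free of any library size, UGDH-AS1 received 0.611, 0.975 and 0.684 counts per count of ENTPD1 in replicates 1, 2 and 3.

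Both abundant names varied between libraries by more than counting noise in edgeR's Poisson fit, with Benjamini and Hochberg's adjustment over all 2564 names with at least 10 counts in every library. The adjusted p was 3.65e-88 for UGDH-AS1 and 5.53e-05 for ENTPD1, and 45.8% of all names tested were called, so 2 of 2 members tested is read against that share. The coefficient of variation left after counting variance was 32.4% for UGDH-AS1 and 6.28% for ENTPD1, beside a median of 20.0% over the names tested. The ENTPD1 call was lost with plain total counts (adjusted p = 0.124) and without replicate 2 (adjusted p = 0.503), whereas UGDH-AS1 passed both; without replicate 2, 263 of 2784 names were called. With a negative binomial null that carries the common dispersion of these libraries, neither passed in edgeR (adjusted p = 0.999 for ENTPD1 and 0.962 for UGDH-AS1). Of the 2564 names 0 passed that null, with 136 at an unadjusted p under 0.05. ENTPD1-AS1 and UGDH fell below the count filter, and with no filter their adjusted p was 0.269 and 0.432, where 20.1% of 14482 names were called. Among the 50 names with the highest mean CPM, the raw coefficient of variation of ENTPD1, 6.60%, was the 4th lowest and that of UGDH-AS1, 32.5%, ranked 43 from the lowest, with a median of 15.9%.

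**Figure D3:**
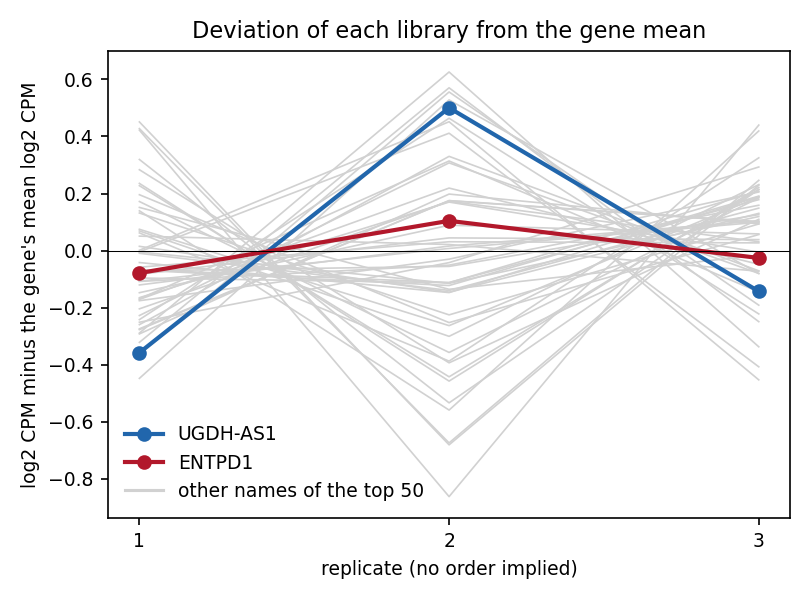
Log2 CPM in each replicate minus the mean log2 CPM of the gene, for UGDH-AS1, ENTPD1 and the other names among the 50 with the highest mean CPM (grey). UGDH-AS1 lies at 0.50 in replicate 2, near the upper edge, and ENTPD1 at 0.10; the libraries are replicates and have no order.

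The 2 pairs were then placed among all names in the tables that form a gene and its numbered antisense RNA. There were 961 such pairs, of which 351 had at least 10 counts over both partners in every library. By summed CPM the ENTPD1 pair ranked 2 and the UGDH pair 3, behind TTN with TTN-AS1. The gene had more counts in all 3 libraries in 130 pairs and the antisense RNA in 190, with 31 mixed. At least 99% of counts lay under the same partner in every library in 66 of 351 pairs, 34 on the side of the gene and 32 on the side of the antisense RNA. The ENTPD1 and UGDH pairs belonged to these 66, on opposite sides. The larger partner held a median of 93.6% over the 351 pairs. These shares are not corrected for length; per kilobase, ENTPD1 held 99.8% ± 0.0961 and UGDH-AS1 99.9% ± 0.0589 of their pairs (SD, n = 3 each).

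Other pairs leaned to either side. TTN, which encodes titin, a giant protein of muscle sarcomeres, had 3265, 5280 and 2296 counts in replicates 1, 2 and 3 against 0 in each library for TTN-AS1, and these genes share 11381 bp of exon. VIM, the gene of the intermediate filament vimentin, had 26, 10 and 9 counts and VIM-AS1 had 1218, 563 and 745, with 641 bp of exon shared. Here the antisense name held the counts, as in the UGDH pair. RNF219, which encodes a RING finger protein, had 8, 14 and 16 counts, and RNF219-AS1 had 1447, 1810 and 1121. PCNA, the gene of the DNA polymerase clamp, had 0, 2 and 0 counts, and PCNA-AS1 had 1593, 1158 and 1003. The RNF219 and PCNA pairs leaned to the same side as the UGDH pair, and the TTN pair to the same side as the ENTPD1 pair. Replicate 2 was the highest library by count for TTN and the lowest for VIM-AS1.

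**Figure D4:**
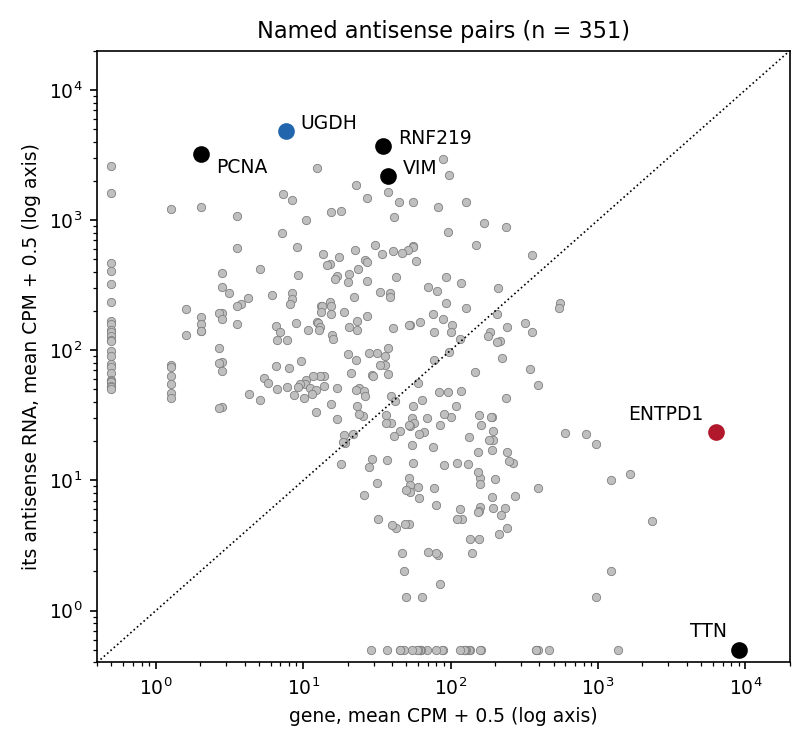
Mean CPM + 0.5 of the gene (x) and of its antisense RNA (y), both on log axes and not corrected for length, for the 351 named pairs, with a dotted line of equality. The ENTPD1 pair (red) and the TTN pair lie at lower right, and the UGDH pair (blue) at upper left beside those of PCNA, RNF219 and VIM.

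Genes within 200 kb of the pairs received far fewer counts than the abundant partner. Around ENTPD1, 3 neighbours lay on its strand and had a count in every library. CCNJ, a gene of the cyclin J protein inside the body of ENTPD1-AS1, had 54, 118 and 24 counts in replicates 1, 2 and 3. CCNJ varied beyond counting noise (adjusted p = 1.08e-09, edgeR's Poisson fit), as did 45.8% of all names tested. CC2D2B had 22, 17 and 3 counts with 491 bp of exon opposite ENTPD1-AS1, and ZNF518A, a zinc finger gene, had 5, 11 and 2. On the strand of ENTPD1-AS1, 4 of 5 neighbours had no count, among them TCTN3, a gene of the ciliary transition zone, and BLNK, a B cell adaptor gene. The remaining one, ALDH18A1, an enzyme gene of proline synthesis, had 0, 0 and 1.

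Around UGDH the neighbours on both strands had counts. KLB, which encodes the FGF co-receptor beta-klotho on the strand of UGDH-AS1, had 209, 302 and 162 counts. KLB varied beyond counting noise (adjusted p = 0.000398, edgeR's Poisson fit), as did 45.8% of all names tested. RPL9, a large-subunit ribosomal protein gene on the strand of UGDH, had 83, 92 and 53 counts and did not pass (adjusted p = 0.595). LIAS, the lipoic acid synthase gene, had 1, 2 and 2 counts, RFC1, a clamp loader subunit gene, had 3, 1 and 6, and SMIM14 had 4, 3 and 5. Over the whole window, names on the strand of UGDH-AS1 other than itself summed to 213, 319 and 164 counts, and names on the strand of UGDH other than itself to 90, 96 and 64. UGDH-AS1 alone exceeded both sums in every library.

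ENTPD1 stood far above the rest of a list of enzymes that handle nucleotides outside cells and their relatives, some of them intracellular. Of 21 listed names in the tables, 14 had a count in some library, with a median of 5.42 CPM, against 7.89 CPM over all names with a count, and 3 reached the count filter. ENTPD7, an intracellular relative of ENTPD1, was next with 122, 198 and 88 counts, or 93.5 ± 27.2 CPM per kb (SD, n = 3). ENTPD1, at 904 ± 59.7 CPM per kb, had been selected on its level, so its place at the top is a description. ENTPD7 varied between libraries with replicate 2 highest (adjusted p = 6.99e-05, edgeR's Poisson fit), and ENTPD4, a Golgi and lysosomal relative, did not pass with 20, 11 and 10 counts (adjusted p = 0.364). With ENTPD1, 2 of the 3 tested in this list were called, where 45.8% of all names tested were. Counts fell off quickly below these. Next were AK1, an adenylate kinase with 10, 9 and 4 counts, and ENTPD3, a cell-surface relative with 6, 12 and 2. NT5E, which acts on the AMP that ENTPD1 leaves, had 3, 2 and 1 counts, at or under the level of 3 counts, and was named after its values were seen.

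Receptors, channels and transporters of purines were counted about as often as other names. Of 27 names, 14 had a count, beside 14482 of all 26485, with a median of 10.3 CPM, against 7.89 CPM over all names with a count. Of the 3 that could be tested 1 was called, where 45.8% of all names tested were: P2RY14, a receptor for UDP-sugars, with 54, 97 and 48 counts (adjusted p = 0.00491, edgeR's Poisson fit). P2RY13, an ADP receptor, had 13, 29 and 17 counts, and P2RY12, the ADP receptor of platelets and microglia, had 7, 43 and 10. SLC29A2, a nucleoside transporter gene, had 12, 14 and 16 counts and P2RX2, an ATP-gated channel gene, had 9, 7 and 8. P2RY13 did not pass the test (adjusted p = 0.0723) and P2RY12 fell below the filter.

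Nearly all genes that supply UDP-sugars had a count, at a median level near that of 3 counts, as was the mean of UGDH. Of 18 names, UGDH included, 17 had a count, beside 14482 of all 26485. Their median was 7.62 CPM, against 7.89 CPM over all names with a count and 7.13 ± 4.21 CPM for UGDH (SD, n = 3). These values lie within the 6.86 to 9.89 CPM that 3 counts were worth, so their closeness is one near the floor. UGGT1, which puts glucose back on misfolded glycoproteins, was the only name tested and was called, as were 45.8% of all names tested, with 42, 19 and 14 counts (adjusted p = 0.0128, edgeR's Poisson fit) and replicate 1 highest. SLC35A2, the UDP-galactose carrier gene, had 9, 8 and 6 counts, and UGP2, whose enzyme makes the UDP-glucose that UGDH oxidises, had 9, 5 and 6. GBE1, a glycogen branching enzyme gene, had 8, 4 and 5, and SLC35B4, a nucleotide sugar carrier gene, had 6, 3 and 4. SLC35A2, UGP2, GBE1 and SLC35B4 each had at most 9 counts in a library, and UGDH at most 4. Per kilobase, UGP2 had 2.66 ± 0.771 CPM and UGDH 1.76 ± 1.04 CPM (SD, n = 3 each), within their spread.

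Among genes downstream of UDP-glucuronate, most of glycosaminoglycan synthesis had counts and most glucuronosyltransferases had none. Of 29 glycosaminoglycan names, 25 had a count, beside 14482 of all 26485, with a median of 8.31 CPM, against 7.89 CPM over all names with a count. Of the 3 tested, 0 were called by edgeR's Poisson fit, with 0 at an unadjusted p under 0.05, where 45.8% of all names tested were called. HAS3, a hyaluronan synthase gene, had 110, 110 and 59 counts, B3GAT2, a glucuronyltransferase gene, had 40, 63 and 33, and XYLT2, which starts proteoglycan chains, had 31, 50 and 27. HS6ST2, a heparan sulphate sulphotransferase gene, had 29, 13 and 5 counts, and B3GAT1 had 19, 19 and 1. Of 19 names in the glucuronosyltransferase list, 15 had no count. UGT8, which makes galactosylceramide and not a glucuronide, led with 51, 72 and 40 counts and did not pass (adjusted p = 0.218, edgeR's Poisson fit), and GUSB, the lysosomal glucuronidase gene, had 11, 3 and 2. UGT2B4 had 3, 0 and 0 counts and UGT2A1 had 0, 1 and 0.

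**Figure D5:**
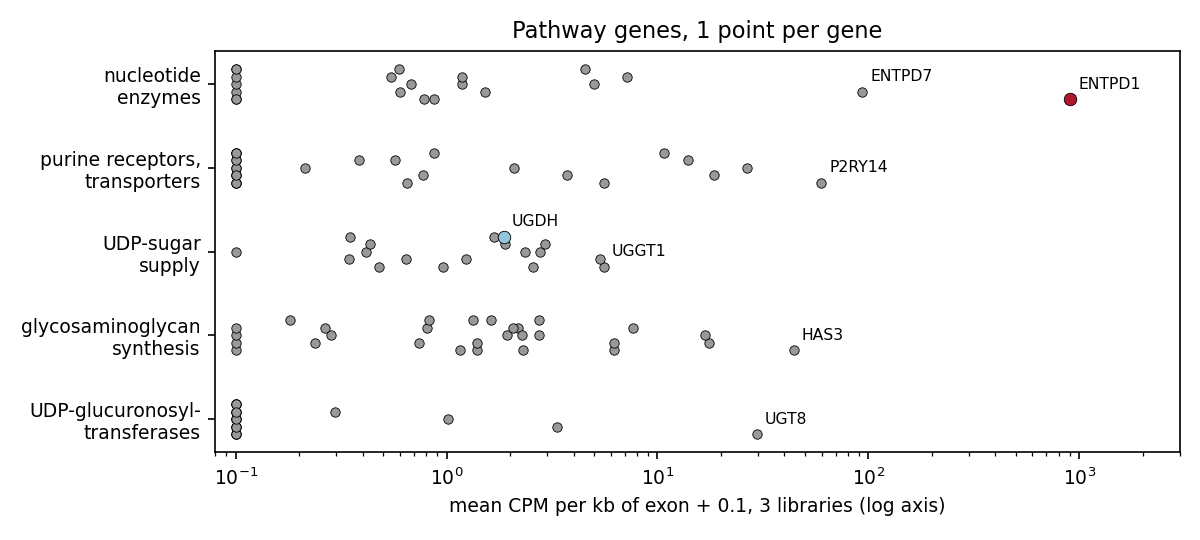
Mean CPM per kilobase of exon + 0.1 on a log axis, 1 point per gene, for the 5 pathway lists. ENTPD1 lies at 904 CPM per kb, apart from ENTPD7 at 93.5 and the rest of its list, while UGDH lies at 1.76 within its list; points at the left edge are genes with no count and overlap.

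Markers of other cell types were summed by list and set beside ENTPD1. Those with a count had a median of 11.3 CPM for lymphocytes, 6.11 CPM for endothelium, 12.7 CPM for macrophages and microglia and 6.84 CPM for hepatocytes, against 7.89 CPM over all names with a count. For B and T lymphocytes, 5 of 11 markers had a count and their summed level was 75.8 to 130 CPM, with PTPRC, CD3D, CD3E and CD79A at 0. FOXP3 led with 24, 15 and 15 counts and CD4 had 27, 17 and 4. For endothelium, 3 of 9 had a count and the sum was 9.89 to 36.9 CPM, with CDH5 and VWF at 0, CLDN5 at 7, 11 and 3 counts, PECAM1 at 5, 3 and 0 and EMCN at 0, 2 and 0. PTPRC, the pan-leukocyte gene, and CDH5, the endothelial cadherin gene, thus had no count in any library. For macrophages and microglia, 4 of 8 had a count and the sum was 46.1 to 70.9 CPM, with CD14, AIF1 and C1QA at 0, CD68 at 18, 16 and 9 counts, CSF1R at 10, 13 and 5 and TMEM119 at 2, 1 and 0. For hepatocytes, 2 of 7 had a count, FGB with 7, 2 and 0 and CYP3A4 with 0, 6 and 2, and the sum was 6.59 to 18.4 CPM with ALB at 0. The highest of these sums was 130 CPM and the lowest level of ENTPD1 was 5964 CPM. ENTPD1 was selected on its level, so this gap is a description. Which cells the counts came from was not tested, and the sum for markers of HEK293 itself was also low. Of 12 markers of HEK293 and its embryonic kidney or neural origin, 10 had a count, with a sum of 157 to 221 CPM. KRT8 led with 27, 31 and 29 counts, then NEFL with 16, 12 and 22 and then VIM, and PAX2 was among those at 0. NEFL was called (adjusted p = 0.0377, edgeR's Poisson fit), 1 of 2 tested, where 45.8% of all names tested were.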

How the data were processed

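The authors deposited raw counts per gene symbol, 1 table for each of 3 HEK293 libraries. The 5 summary lines of the read counter stayed out of every library size and test; on average 91.2% of records fell in no feature, 6.77% aligned to several places and 0.0184% were ambiguous. Per the submitters' processing notes, reads were handled with Trimmomatic, TopHat2 2.2.5 and HTSeq 0.11.2 on hg38. No source used here states the annotation, the strand option or the read layout.

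CPM used TMM effective library sizes from edgeR 4.0.16 in R 4.3.3. Variation between replicates was tested with an intercept-only edgeR fit at a dispersion of 0, the deviance against a chi-square distribution, and Benjamini and Hochberg's adjustment over all names with at least 10 counts in every library, called at an adjusted p under 0.05. The fit was tested on simulated data. The excess coefficient of variation came from the variance minus the counting variance. Profiles over the libraries used log2(CPM + 0.5), and likeness was the Euclidean distance after centring.

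Exons of all transcripts in GENCODE 29 were merged per gene; 90.3% of 26485 names matched it. It stands in for the annotation used to count. Wilson intervals came from scipy 1.17.1. The members and gene lists were chosen with earlier results of these data known. Named were the members, the TTN and VIM pairs, the 3 antisense pairs with the largest summed CPM besides the members, the 5 highest and any called gene of each pathway list, the 3 highest of each marker list, neighbours within 200 kb with a count in every library and the 3 most similar profiles. Alternatives were DESeq2 1.42.0 size factors, total counts, omission of TSIX, a negative binomial null, a Pearson statistic, no filter, other exon lengths, summed counts and leaving out each replicate. Some genes covered by the naming rule are not reported here.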

Additional observations from a re-analysis of the deposited data

How the results depend on the processing

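With TSIX, the name with most counts, left out of the denominator, ENTPD1 had 8015 CPM, and its other 5 alternatives moved it by less than its SD. The levels of ENTPD1-AS1, UGDH and UGDH-AS1 moved by less than their SD in all 6 alternatives each, as did both pair shares in all 5. Leaving out a replicate gave 6075 to 6478 CPM for ENTPD1, 19.5 to 28.5 for ENTPD1-AS1, 5.75 to 9.55 for UGDH and 3936 to 5416 for UGDH-AS1, and 99.5% to 99.7% of the pair under ENTPD1 and 99.8% to 99.9% under UGDH-AS1. Per kilobase of the longest transcript, ENTPD1 had 1250 CPM, ENTPD1-AS1 5.39 and UGDH 2.22.

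The call of variation for ENTPD1 was lost with total counts (adjusted p = 0.124), without replicate 2 (0.503) and with a negative binomial null (0.999), and that for UGDH-AS1 with the negative binomial null (0.962). That null carries the common dispersion of these libraries, and 0 of 2564 names passed it in edgeR, with 136 at an unadjusted p under 0.05. Over the replicates left out, the adjusted p ran from 3.07e-11 to 0.503 for ENTPD1 and from 1.67e-100 to 0.00240 for UGDH-AS1, and the names called from 263 (without replicate 2) to 1093, against 1175. With no count filter 2914 names were called. No paired analysis was possible because the libraries form a single group. Depth limits ENTPD1-AS1 and UGDH, whose highest counts in a library were 12 and 4.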

Other observations

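The names whose profile over the 3 libraries lay closest to ENTPD1, among the 2563 others that passed the count filter, were LOC101928063, BEND3P3, a pseudogene of the BEND3 family, and TAF9B, a gene of a TAF9-like transcription factor subunit. LOC101928063 had 204, 230 and 147 counts in replicates 1, 2 and 3, at a Euclidean distance of 0.0018 on the centred log2(CPM + 0.5) scale. BEND3P3 had 309, 349 and 225 counts at 0.013, and TAF9B had 88, 98 and 64 at 0.022. The closest to UGDH-AS1 were NCBP1, a nuclear cap-binding gene, with 132, 234 and 105 counts at 0.016, ABCC9, a subunit gene of potassium channels, with 568, 1021 and 451 at 0.016, and TEFM, a mitochondrial transcription factor gene, with 40, 73 and 32 at 0.020. ENTPD1 and UGDH-AS1 lay 0.50 apart, and 1136 of the 2563 names lay closer to ENTPD1 than that. A profile over 3 libraries leaves little room to tell names apart.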
